A study of Mus musculus with 6 samples.

Results

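The intergenic long noncoding RNA regions that were detected in the hypothalamus numbered 1898, of 4061 such regions on the array. On this array a region is named for a genomic interval followed by F or R, the strand on which its transcript is read. The array held 4449 probes for these regions among 56605 probes in all. Members were chosen by their detection. A probe was kept when, in 1 group or both, all 3 arrays carried the scanner software's mark of a signal well above background. This left 2022 region probes. Of these, 1611 probes for 1514 regions were well above background on all 6 arrays, and all counts of changed probes below are over these 1611. Because the detection marks chose the members, detection is given here as a description, with no test.

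The RNA came from the hypothalamus of male C57BL/6J mice with diet-induced obesity (DIO), which had been fed a high-fat diet in both groups. The compared groups were GSK-J4, given at 30 mg kg−1 by intraperitoneal injection, and vehicle, with 3 arrays each and 1 labelled RNA in 1 colour per array. Tissue was taken in the light phase. The deposited design places it at day 4 of exposure, whereas the methods describe a longer daily course. The labels give no age for these animals, and the methods describe males put on the diet when young and kept on it for months. The methods call a biological replicate of an animal experiment an individual mouse, without reference to the arrays, and the labels do not say that each array is 1 mouse. The p-values measure the spread between these samples. GSK-J4 reached the whole animal, and the tissue was not sorted by cell type, so that fewer cells of a type and less RNA per cell cannot be told apart.

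Long intergenic noncoding RNAs are transcripts that lie outside protein-coding genes and encode no known protein. Some act on neighbouring genes or on chromatin, and for most the role is unknown. The repressive mark H3k27me3 is placed by the Polycomb complex that holds Ezh1 or Ezh2, and is removed by the demethylases Kdm6a and Kdm6b, which GSK-J4 inhibits. Few of the regions have a name other than their interval, so they are described here by place, strand and probe. The question put to them was whether their signal differed between GSK-J4 and vehicle once the GC content and the brightness of the probes were taken into account.

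The probes are single 60-base sequences, which are the transcript as the array saw it. The first 5 below belong to the regions with the clearest higher and lower signal with GSK-J4, and the last is the brightest probe of a run of falling regions at Lsamp. Each is printed 5′ to 3′ as the deposited files give it, with its place on mm9. Capitals mark the letters CCTAAC, and a sequence without capitals does not hold them.
chrX:92149320-92151107_R, minus strand, probe at chrX:92149387-92149446: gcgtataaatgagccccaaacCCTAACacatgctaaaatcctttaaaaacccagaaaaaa
chrX:92139043-92140820_R, minus strand, probe at chrX:92139110-92139169: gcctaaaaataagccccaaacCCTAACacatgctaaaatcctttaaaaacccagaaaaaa
chr19:54011403-54018978_F, plus strand, probe at chr19:54018158-54018217: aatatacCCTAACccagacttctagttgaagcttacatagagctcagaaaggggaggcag
chr1:135061034-135070387_F, plus strand, probe at chr1:135066600-135066659: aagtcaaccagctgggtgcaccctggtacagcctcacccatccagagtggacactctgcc
chr9:13281056-13281599_F, plus strand, probe at chr9:13281124-13281183: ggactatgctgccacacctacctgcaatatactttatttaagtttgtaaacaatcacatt
chr16:40471828-40472481_F, plus strand, probe at chr16:40472353-40472412: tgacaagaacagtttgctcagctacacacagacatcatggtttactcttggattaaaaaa

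The first 2 of these probes were identical in 57 of their 60 bases. They lie in neighbouring regions of the X chromosome and may catch the same transcripts, so they are not independent of each other. The 3 probes with the largest higher signal all held CCTAAC. Over the 1611 region probes, 23 (1.43%) held these letters, against 276 of all 30940 probes (0.892%), and the reverse complement GTTAGG stood in 10 (0.621%) and 208 (0.672%). Of the 23, 6 were higher and 2 were lower by limma's test at an adjusted p of 0.05, 26.1% and 8.70%, beside 14.4% and 9.31% of all region probes. With the GC and signal trend described below removed, 4 were higher and 4 lower, 17.4% each. These 23 hold the probes for which the letters were picked. A match is a description of the probe and not a site.

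Region probes were detected less often than the others. Of all region probes 45.4% were kept, against 62.2% of the other probes. In the vehicle group between 2155 and 2197 region probes were well above background on an array, 48.4% to 49.4%, and in the GSK-J4 group between 1812 and 1875, 40.7% to 42.1%. The GSK-J4 arrays were dimmer for the array as a whole. The 75th percentile of their intensity lay between 406 and 461, against 787 to 916 on the vehicle arrays, and 57.7% to 58.7% of all their probes were well above background, against 62.8% to 63.6%. All vehicle arrays lay on 1 slide and in 1 scan, and all GSK-J4 arrays on another, so slide and treatment cannot be told apart for any value below.

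The detected regions came from both strands alike. There were 1006 kept probes on the forward strand and 1016 on the reverse strand. No region probe with a coordinate lay against the strand of its name, and 91 of the 4449 had no coordinate. Kept regions were between 67 and 533972 bases long, with a median of 11076, and lay on 20 chromosomes, from 48 regions on the chromosome with fewest to 135 on chromosome 1. Most, 1788, had 1 kept probe and 110 had several. Their probes were dimmer and richer in GC than the rest of the array, with a median log2 signal of 7.07 against 8.85 for all 30940 probes well above background on all 6 arrays, and a median GC content of 45% (quartiles 41.7% to 53.3%) against 43.3% (36.7% to 45%).

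A further 411 probes were kept through 1 group alone, 391 through vehicle and 20 through GSK-J4. Of the 391, 127 were well above background on 0 GSK-J4 arrays, and of the 20, 2 were so on 0 vehicle arrays. Such probes had to differ, and with the dimmer GSK-J4 arrays in view nothing is read from their numbers. At the edge of the choice the values were low. The region chr17:13008796-13023201_F was just inside, with deposited log2 values of 3.83, 3.92 and 3.98 on the vehicle arrays. Just outside, chr1:90340543-90359181_R had 8.18, 4.26 and 3.85 in vehicle, of which only the first was high, and chr11:112898724-113062945_F was marked on 2 arrays of each group with a GSK-J4 mean of 5.50. Another 460 region probes were marked on some arrays but not kept, and 1967 were marked on none.

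The labelled tissue was checked by marker genes. Of 17 hypothalamic markers 12 were detected by the rule used for the regions, and Avp, Nkx2-1, Pmch, Sim1 and Trh were not. Of these, Avp, Pmch and Trh were each marked on 1 vehicle and 2 GSK-J4 arrays. The detected ones summed to between 4932 and 5529 on the vehicle arrays and between 6891 and 7600 on the GSK-J4 arrays. By limma's adjusted p, Npy (0.0267) and Pomc (0.0220) were higher, where 9.10% of all 30940 probes were. Kiss1 and Rax were kept through the GSK-J4 arrays alone, so nothing is read from their difference. Choroid plexus markers, of which 8 of 10 were detected, summed to 120064 on vehicle array 1 against 2994 to 12669 on the other arrays. Cldn2 and Slc4a5 did not pass the rule, but on vehicle array 1 they too were highest, at log2 values of 9.95 and 11.02. All 5 markers of astrocytes, of oligodendrocytes, of microglia and of neurons and all 4 of endothelium were detected, and none was called. The part of these differences in the values of the regions was not tested. Arrays within a group correlated at 0.978 to 0.995 across probes and arrays of different groups at 0.969 to 0.987.

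The genes that write and remove H3k27me3 were listed as background to the treatment. The list held 10 genes, Kdm6a, Kdm6b, Uty, Ezh1, Ezh2, Eed, Suz12, Jarid2, Rbbp4 and Rbbp7, with 28 probes of which 23 were well above background on all 6 arrays. By an adjusted p of 0.05 in limma, 1 of the 23 was higher with GSK-J4 and 2 were lower, against 9.10% and 7.86% of all 30940 probes. A probe of Ezh2, a methyltransferase of the Polycomb complex, was higher by 0.55 on the log2 scale (adjusted p = 0.0260), while its other 4 probes differed by −0.02 to 0.49 and did not pass. A probe of Rbbp7, a histone-binding subunit, was lower by −0.28 (adjusted p = 0.0474), and with the GC and signal trend described below removed it did not pass (adjusted p = 0.233). A probe of Uty, a Y-linked relative of Kdm6a, was lower by −1.41 (adjusted p = 0.0299), while the other probe of that gene differed by 0.01.

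Among the 1611 region probes, both higher and lower signal with GSK-J4 was common. By an adjusted p of 0.05 in limma, 232 were higher (14.4%) and 150 lower (9.31%), against 9.10% and 7.86% of all probes. By the thresholds of the methods, a 1.5-fold difference with a p of 0.05, 165 were higher (10.2%) and 138 lower (8.57%), against 4.94% and 6.07% of all probes. The groups did not overlap for 497 higher probes (30.9%, against 26.6% of all) and 311 lower probes (19.3%, against 20.0%). The median difference of the region probes was 0.09 on the log2 scale, and that of all probes 0.05. The calls by adjusted p rested on all 3 vehicle arrays. Without vehicle array 1, 2 or 3 the adjusted p called 0, 1 and 0 region probes, with 596, 604 and 590 at an unadjusted p of 0.05, and without GSK-J4 array 1 it called 173. The counts by fold and p were between 273 and 347 in all when 1 array was left out (16.9% to 21.5%, against 9.38% to 13.1% of all probes). With arrays scaled to the 75th percentile instead of quantile normalized, fold and p gave 129 higher and 184 lower, 19.4% of region probes. Of all probes, 1606 were then higher and 2274 lower, 12.5%.

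The higher share followed the GC content of the probe. In region probes with under 42% GC, 4.62% were higher and 15.8% lower by fold and p, and from 55% GC up 18.4% were higher and 3.11% lower. All probes ran the same way, from 2.14% higher and 8.97% lower to 12.4% and 0.816%. The median difference of region probes went from −0.10 through 0.06 and 0.19 to 0.32 over the GC classes. In each array, a smooth trend of the deviation from the probe means on GC content and mean signal was therefore fitted to the probes other than region probes and taken off every probe, and the same test was run. These values are called trend removed below.

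With the trend removed, the higher regions were fewer and the lower regions were the larger group, and both shares were above those of all probes. Higher by fold and p were 100 (6.21%, against 4.19% of all probes) and lower were 163 (10.1%, against 5.52%). By the adjusted p, 117 were higher (7.26%, against 5.12%) and 146 lower (9.06%, against 5.34%). The median difference of the region probes went to 0.01, with 0.04 for all probes, and the medians of the GC classes lay between −0.02 and 0.03. The adjusted p again needed every vehicle array. It called 0 region probes without any one of them, with 495 to 530 at an unadjusted p of 0.05, and at most 0.00323% of all probes. Without GSK-J4 array 1 it called 78 region probes (4.84%, against 2.37% of all probes). With a trend on signal alone, 49.5% of the probes past fold and p were higher, in place of 100 of 263.

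Shares of other probes were also read at the GC content and brightness of the regions. Weighted to the classes of GC and signal that the region probes fill, 8.68% of the other probes were higher and 5.55% lower by fold and p in the deposited values, against 10.2% and 8.57% of region probes. With the trend removed the weighted shares were 5.65% and 5.89%, against 6.21% and 10.1%. So of the shares, that of lower regions stood farthest from other probes of like make-up. These shares are a description, since probes of 1 transcript or 1 neighbourhood are not independent.

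**Figure D1:**
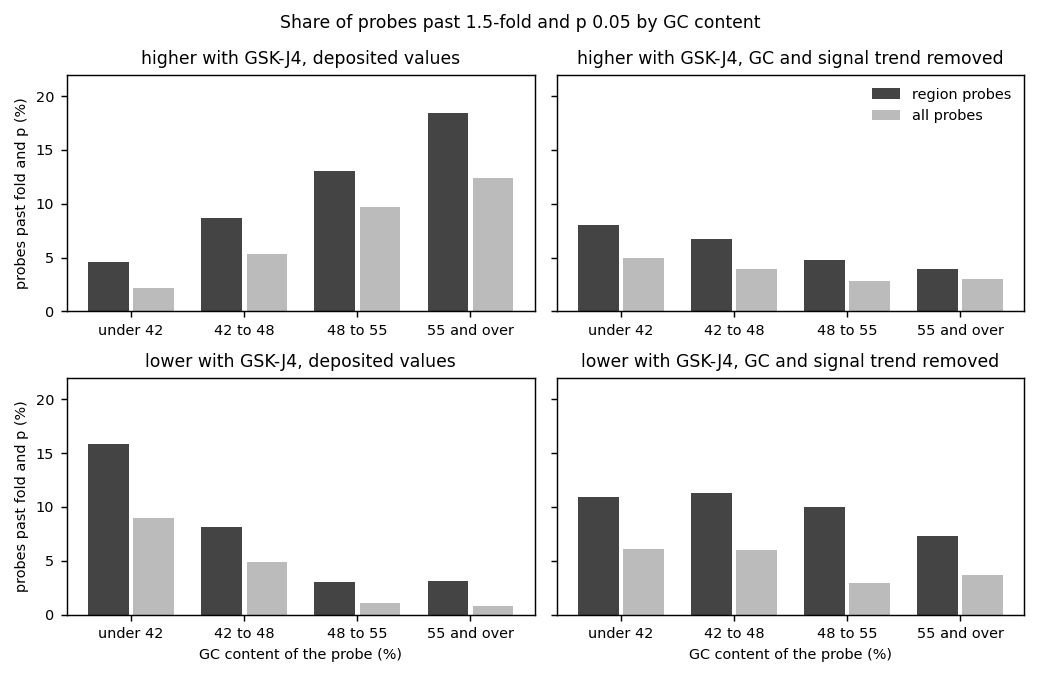
Share of probes, in percent, past 1.5-fold and a p of 0.05 in each class of probe GC content (x axis, percent), for the 1611 region probes (dark bars) and all 30940 probes (light bars), with higher signal in the top panels, lower signal in the bottom panels, deposited values at left and trend removed at right. In deposited values the share of higher region probes goes from 4.62% to 18.4% with GC content, and with the trend removed it goes from 7.98% to 3.95%.

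Calls that did not depend on the trend were fewer. In both values, with groups that did not overlap, 192 region probes passed fold and p, 79 higher (4.90%, against 2.65% of all probes) and 113 lower (7.01%, against 4.60%). Without each array in turn between 151 and 182 of the 192 stayed past it. With normexp background correction 75 did. By adjusted p, 213 were called in both values, 102 higher and 111 lower. A further 169 were called in the deposited values alone, of which 130 were higher and 39 lower. For 224 of the 1611 the sign of the difference changed when the trend was taken off. These counts by adjusted p and of changed signs have no share of all probes beside them. They describe the region probes, and nothing about the regions as against other probes is read from them.

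The 6 largest rises among these lay on 5 chromosomes. These rises, and the falls below, were chosen among probes whose groups did not overlap, so groups that stand apart are part of the choice. The reverse-strand region chrX:92149320-92151107_R read 4.38, 4.57 and 4.19 on the vehicle arrays and 6.38, 6.14 and 7.03 on the GSK-J4 arrays. Every GSK-J4 array was above every vehicle array, a 4.40-fold higher signal (log2 difference 2.14 ± 0.25 SE, limma adjusted p = 0.0145, and 2.35 with the trend removed). Its neighbour chrX:92139043-92140820_R, with the nearly identical probe, read 4.85, 5.13 and 4.64 in vehicle and 6.52, 6.59 and 7.21 in GSK-J4. The groups were again apart, by 3.72-fold (1.90 ± 0.22 SE, adjusted p = 0.0146). The nearest probe with a RefSeq gene name, as for all nearest gene probes below, was that of Spin4, a reader of histone methylation. It lay 68724 bases from the probe of the first region and 79001 from that of the second, and was above background in vehicle only.

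The forward-strand region chr19:54011403-54018978_F read 5.17, 5.68 and 5.08 in vehicle and 7.29, 7.10 and 7.69 in GSK-J4. All 3 GSK-J4 arrays were higher, by 4.15-fold (2.05 ± 0.22 SE, limma adjusted p = 0.0144, 1.90 with the trend removed). The reverse strand of the same interval went the other way in its values, 6.04, 5.62 and 6.28 in vehicle and 4.89, 5.58 and 5.53 in GSK-J4, a difference of −0.65 that did not pass (adjusted p = 0.125). Bbip1, a subunit of the complex that carries cargo to the cilium, had its probe 13118 bases away and differed by 0.16 (adjusted p = 0.289).

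The other 3 rises were about 2.3-fold. The region chr16:25122825-25273475_F, 150651 bases long, read 4.74, 4.84 and 4.88 in vehicle and 5.84, 6.07 and 6.13 in GSK-J4, 2.28-fold higher (1.19 ± 0.10 SE, limma adjusted p = 0.0120). Its spread within groups was small, and the trend took its difference to 0.99. The region chr15:33966641-34004891_R read 6.28, 7.04 and 6.98 in vehicle and 8.10, 7.93 and 7.81 in GSK-J4 (2.26-fold, 1.18 ± 0.22 SE, adjusted p = 0.0272). Vehicle array 1 was its lowest value, and no array overlapped. The nearest gene probe, of Mtdh on the other strand 47864 bases away, was lower by −0.74 (adjusted p = 0.0419). The region chr7:37480456-37481372_F read 4.50, 4.16 and 4.41 in vehicle and 5.92, 4.91 and 5.77 in GSK-J4 (2.26-fold, 1.18 ± 0.28 SE, adjusted p = 0.0433). GSK-J4 array 2 was close to the vehicle arrays there. It lies 5810 bases from the probe of Tshz3, a zinc finger transcription factor of neuron development, which differed by 0.18 (adjusted p = 0.413).

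The 6 largest falls were between 2.999-fold and 3.91-fold. The forward-strand region chr1:135061034-135070387_F read 7.16, 6.96 and 7.18 in vehicle and 5.02, 5.23 and 5.15 in GSK-J4. It had the tightest groups of the 12 largest changes by its standard error, 3.91-fold lower (−1.97 ± 0.10 SE, limma adjusted p = 0.00547). Its probe holds 60% GC, at which probes were mostly higher, and with the trend removed the difference was −2.27. The nearest gene probe on its strand, of Ppp1r15b, a subunit of the phosphatase that acts on eIF2alpha, lay 30671 bases away and differed by −0.16 (adjusted p = 0.138).

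A pair of the falling regions lay near each other on chromosome 9. The region chr9:13281056-13281599_F, 544 bases long, read 7.54, 7.40 and 7.23 in vehicle and 5.38, 5.92 and 5.18 in GSK-J4 (3.73-fold lower, −1.90 ± 0.21 SE, limma adjusted p = 0.0144). The region chr9:13349094-13352732_F on the same strand read 9.64, 9.55 and 9.56 in vehicle and 7.46, 8.52 and 7.59 in GSK-J4 (3.30-fold lower, −1.72 ± 0.28 SE, adjusted p = 0.0220). In both, GSK-J4 array 2 was the least low and still below every vehicle array. Between them on the same strand lies a probe that the files name by the accession BX518075, which was lower by −1.99 (adjusted p = 0.0144). The nearest probe with a RefSeq gene name, of Phxr4 on the same strand 45409 bases before the first, was lower by −1.42 (adjusted p = 0.0220). Farther along the strand, the probes of Maml2 that start at 13511227 and 13513748 differed by 0.02 and 0.03 (adjusted p = 0.907 and 0.887). Whether the falling regions are read from inside that gene was not tested.

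The region chr10:39405900-39406539_R read 7.47, 7.36 and 7.17 in vehicle and 5.16, 5.81 and 5.80 in GSK-J4 (3.34-fold lower, −1.74 ± 0.20 SE, limma adjusted p = 0.0145). The groups were apart, while the probe of Traf3ip2, an adaptor of interleukin-17 signalling, 31494 bases away on the other strand, differed by −0.10 (adjusted p = 0.738). The region chr2:174852887-174853961_F read 7.96, 7.54 and 7.72 in vehicle and 5.49, 6.46 and 6.40 in GSK-J4 (3.07-fold lower, −1.62 ± 0.29 SE, adjusted p = 0.0244). GSK-J4 array 1 was its lowest.

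The last of the 6 was chr1:167219841-167220505_F, with 7.61, 7.51 and 7.57 in vehicle and 5.58, 6.29 and 6.06 in GSK-J4 (2.999-fold lower, −1.58 ± 0.18 SE, limma adjusted p = 0.0145). A region just before it on the strand, chr1:167218236-167218418_F, which was picked after its values were seen, read 7.86, 7.80 and 7.79 in vehicle and 6.23, 6.44 and 6.36 in GSK-J4 (−1.48 ± 0.08 SE, adjusted p = 0.00721). Both fell on every array, and the gene probes on either side of the first, of Tiprl and of Gpr161, a receptor of the cilium, differed by −0.20 (adjusted p = 0.102) and 0.19 (adjusted p = 0.356). A farther and brighter probe of Gpr161 was lower by −0.35 (adjusted p = 0.0492, and 0.0510 with the trend removed), so the probes of that gene disagreed. For each of the 12 largest changes the exact two-sided permutation p over the 20 orders of 3 arrays against 3 was 0.1, the smallest such a design allows. The choice of groups that do not overlap fixed this value, so it is no further support. All 12 kept fold and p in both values without each array in turn, and 10 of them with normexp. They were picked for passing on these same arrays, so this is a description.

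**Figure D2:**
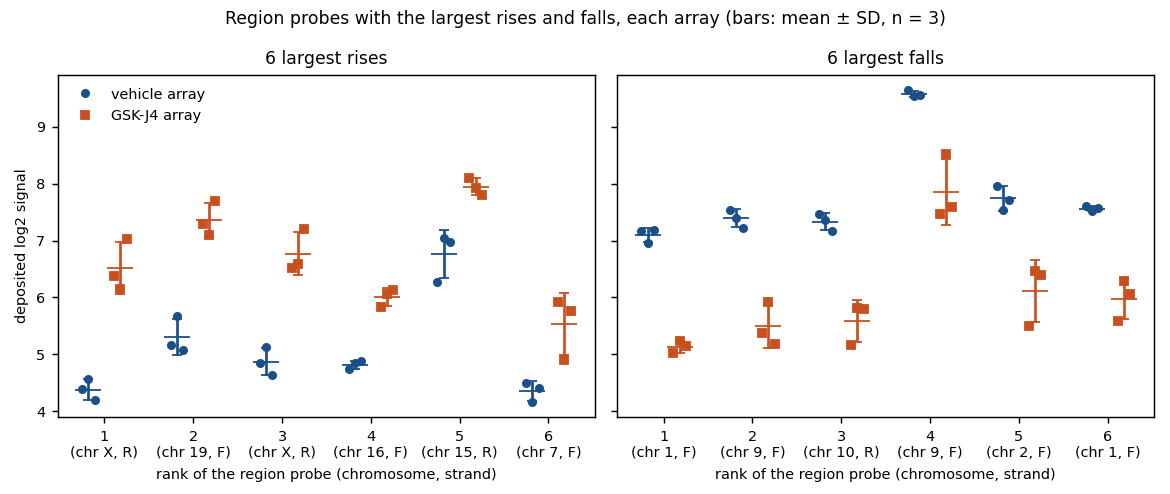
Deposited log2 signal (y axis) of the 6 largest rises (left) and the 6 largest falls (right) among region probes, on each vehicle array (circles) and each GSK-J4 array (squares), with bars for the mean ± SD of 3 arrays. By the rule that chose them the groups do not overlap in any of the 12, and in the seventh plotted, the first fall, the vehicle arrays lie at 6.96 to 7.18 and the GSK-J4 arrays at 5.02 to 5.23.

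Regions marked in 1 group only had to differ, so no p-value is given for them, and their fold is a bound. It sets the mean of the marked group against the mean of the floors of the other group, the floor of an array being the lowest signal among its probes well above background, or the signal of the probe itself where that was higher. The region chr5:110502650-110522475_F was marked on the GSK-J4 arrays alone, with 5.12, 5.28 and 5.39 there and 2.67, 2.02 and 2.11 in vehicle, at least 2.66-fold higher. Its probe holds CCTAAC too. Plcxd1, a phospholipase domain protein whose probe lies 26338 bases after it on the strand, was higher by 0.90 (limma adjusted p = 0.0145). The other region marked in GSK-J4 alone, chr15:82036791-82037660_R, read 5.22, 5.17 and 5.55 against 3.53, 3.72 and 2.63 in vehicle, at least 2.74-fold higher. It lies between the probes of Srebf2, a transcription factor of cholesterol synthesis, and Shisa8, 1238 and 1084 bases away. These differed by 0.21 (adjusted p = 0.304) and 0.94 (adjusted p = 0.109).

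Of the 127 marked in vehicle alone with no GSK-J4 array, the brightest were described. The region chr16:40307931-40318856_F read 6.45, 5.78 and 6.29 in vehicle and 4.46, 4.41 and 3.73 in GSK-J4, at least 3.19-fold lower. The region chr2:174917150-174935618_R, whose probe also holds CCTAAC, read 6.13, 5.70 and 5.91 against 3.41, 4.23 and 2.99, at least 2.66-fold lower. The groups did not overlap in either. The regions chr5:152029557-152030218_R and chr16:90116006-90119297_R were lower by bounds of 2.17-fold and 2.16-fold. In the second the GSK-J4 arrays were spread from 2.50 to 5.02.

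A run of falling regions lay on the forward strand of chromosome 16, ahead of the nearest probe named Lsamp, a cell adhesion protein of neurons of the limbic system. A probe under a synonym of Lsamp lies ahead of regions of the run on the same strand. By these coordinates those regions could be read from inside the gene. Runs like this were looked for after the values were seen, as chains of region probes on 1 strand with gaps of at most 200000 bases and at least 3 probes past fold and p in both values. The run held 13 kept probes for 13 regions from 40072536 to 40653242, 580 kb in all. The 8 well above background on all 6 arrays all had negative differences and 7 of them passed in both values, and without each array in turn these 7 still passed. Since the run was found through probes that passed on these arrays, this is a description. The median difference was −1.37, and −1.33 with the trend removed.

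Within the run the brightest was chr16:40471828-40472481_F, with 11.92, 11.68 and 11.94 in vehicle and 10.01, 10.77 and 10.27 in GSK-J4 (2.83-fold lower, −1.499 ± 0.21 SE, limma adjusted p = 0.0172). Next to it chr16:40470294-40470935_F read 8.25, 7.94 and 8.43 against 6.73, 7.01 and 6.84 (−1.35 ± 0.15 SE, adjusted p = 0.0144). Farther back, chr16:40267386-40268181_F read 10.98, 10.73 and 11.14 against 9.16, 9.93 and 9.59 (−1.39 ± 0.22 SE, adjusted p = 0.0209). In each the groups were apart, and GSK-J4 array 2 was the highest of its group.

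The regions chr16:40283097-40284822_F, chr16:40307070-40308718_F and chr16:40312038-40315564_F, in the middle of the run, differed by −1.49, −1.49 and −1.23 (limma adjusted p between 0.0149 and 0.0211). The interval chr16:40307931-40318856_F, which was marked in vehicle alone, overlaps the second and spans the third, so these probes may read 1 transcript. The weakest of the 7 was chr16:40096026-40097242_F at the start of the run, with 7.48, 7.26 and 7.51 in vehicle and 6.23, 6.97 and 6.65 in GSK-J4 (−0.80 ± 0.20 SE, adjusted p = 0.0471, and 0.0566 with the trend removed). The eighth, chr16:40592137-40594284_F, did not differ beyond its spread, at 5.54, 5.17 and 5.46 against 5.14, 5.55 and 5.28 (−0.07 ± 0.15 SE, adjusted p = 0.773). The remaining 5 probes were not well above background on every GSK-J4 array.

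The Lsamp probe 4515 bases after the last region fell by as much as the run. It read 10.10, 10.07 and 10.40 in vehicle and 8.35, 9.11 and 8.50 in GSK-J4 (−1.54 ± 0.22 SE, limma adjusted p = 0.0177). The Lsamp probes at the far end of the gene were 3. Those well above background on all 6 arrays differed by −0.24 (adjusted p = 0.223) and −0.62 (adjusted p = 0.481). The third, marked in vehicle alone and so bound to differ, read 4.80, 4.51 and 4.96 in vehicle and 3.29, 4.04 and 3.51 in GSK-J4. The difference between probes of the gene was not tested. On the reverse strand a region at the start of the run, chr16:39984031-40081556_R, read 9.92, 9.49 and 9.40 in vehicle and 10.84, 10.20 and 10.47 in GSK-J4, higher by 0.90 (adjusted p = 0.0430). With the trend removed it was 0.60 (adjusted p = 0.112). No reverse-strand fall was among the runs found in this stretch.

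**Figure D3:**
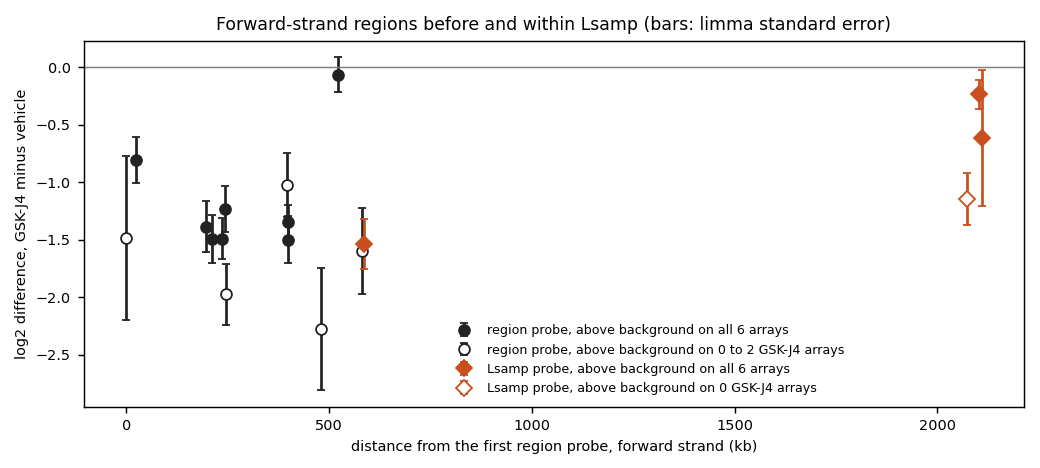
Log2 difference, GSK-J4 minus vehicle (y axis, bars are limma's standard error), of the forward-strand region probes of the run at Lsamp and of probes named Lsamp, by distance in kb from the first region probe (x axis). Filled circles were well above background on all 6 arrays, open circles on 0 to 2 GSK-J4 arrays, where the plotted value is fitted and is no fold, and diamonds are Lsamp probes, filled and open in the same way. Of the filled circles 7 lie between −1.499 and −0.80 and 1 at −0.07, the nearest diamond is at −1.54 and the far ones at −0.24, −0.62 and, for the open one, −1.15.

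Another 3 such runs were found. On the reverse strand of chromosome 17, from 46989585 to 47009126, 3 regions were lower, chr17:46989233-46990845_R by −0.84 (limma adjusted p = 0.0150), chr17:46972160-46997919_R by −1.10 (adjusted p = 0.0728) and chr17:47006033-47023558_R by −0.69 (adjusted p = 0.0380). The first of these intervals lies inside the second. Before the run on its strand, a probe of Gltscr1l 51890 bases away differed by 0.26 (adjusted p = 0.302). A farther probe of that gene was lower by −0.38 (adjusted p = 0.0353, and 0.112 with the trend removed). The forward strand of the second interval differed the other way on all 3 of its probes, by 0.30, 0.72 and 0.77, of which the last 2 passed (adjusted p = 0.0218 and 0.0163, and 0.0505 and 0.0390 with the trend removed). On the forward strand of chromosome 17, from 3114661 to 3347183, 4 regions were well above background on all 6 arrays and 3 of them were lower, by −0.90 to −0.96. The fourth, chr17:3213918-3257944_F, differed by 0.17 (adjusted p = 0.151). Probes of Scaf8 lie on that strand between the ends of the run. Those well above background on all 6 arrays differed by −0.83 (adjusted p = 0.0167), 0.28 (adjusted p = 0.102) and −0.08 (adjusted p = 0.439). Whether either chromosome 17 run is read from these genes was not tested.

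The only run of higher regions lay on the forward strand of chromosome 2, where 3 regions stood within 2 kb. The region chr2:143988645-143993945_F read 8.33, 8.78 and 8.55 in vehicle and 9.60, 9.28 and 9.45 in GSK-J4 (0.89 ± 0.15 SE, limma adjusted p = 0.0222). The regions chr2:143991240-143991597_F and chr2:143992000-143992611_F lie inside the first and were higher by 0.94 (adjusted p = 0.0165) and 0.68 (adjusted p = 0.102). Since these 3 intervals overlap, their probes may read the same RNA. The groups did not overlap for any of them.

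Differences of neighbouring probes correlated more on 1 strand than across strands, while their signs were the same about as often. For 275 pairs of neighbouring region probes on the same strand within 50000 bases, the differences correlated at 0.44 (Pearson, 0.48 with the trend removed), and at 0.39 for the 271 pairs left without the run at Lsamp. For 266 neighbours on opposite strands it was 0.07 (0.05 with the trend removed). The signs were the same in 58.9% of same-strand and 57.1% of opposite-strand pairs, with median absolute gaps of 0.35 and 0.38. These pairs share arrays and, in part, GC content, which correlated at 0.26 and 0.29, and the values are given as a description. Probes of 1 region, 88 pairs, correlated at 0.13 and had the same sign in 68.2%, with a median absolute gap of 0.24 on the log2 scale.

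Both strands were probed for 832 of the 3229 intervals. In 228 both strands were kept, in 159 the forward strand only, in 221 the reverse strand only, and in 224 neither. For 162 intervals both strands were well above background on all 6 arrays, and their differences, with 1 probe per strand, correlated at 0.04 in both values. Among them is chr13:70745306-70837331, at 0.73 and −1.96, where the reverse value rested on 1 array and another reverse probe differed by 0.32. The effect of such points on the correlation was not tested. The signs were the same in 58.0% in deposited values and in 51.9% with the trend removed. In 2 intervals both strands passed fold and p in both values, in the same direction, in 0 they passed in opposite directions, and in 30 only 1 strand passed. Of all 1611 region probes 4.90% passed as higher and 7.01% as lower, and of all 30940 probes 2.65% and 4.60%. Whether 2 is more than unrelated strands would give was not tested.

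Of these 2, chr13:44217172-44224947 was higher on both strands. Its forward probe read 7.85, 8.05 and 7.74 in vehicle and 8.64, 8.60 and 8.95 in GSK-J4 (0.85 ± 0.13 SE, limma adjusted p = 0.0201), and its reverse probe 6.34, 6.98 and 6.99 against 8.01, 7.62 and 8.07 (1.13 ± 0.22 SE, adjusted p = 0.0292). The other, chr8:122920901-123008463, was lower on both, and its forward probe lies between probes of the gene Gse1 on the same strand. Its forward probe read 7.20, 7.19 and 7.40 against 6.30, 6.41 and 6.07 (−1.01 ± 0.12 SE, adjusted p = 0.0146), and its reverse probe 5.65, 5.81 and 5.99 against 5.21, 4.95 and 5.14 (−0.71 ± 0.12 SE, adjusted p = 0.0226). No array overlapped in either interval. The brightest intervals kept on both strands were chr12:73838608-73862621, with 0.35 (adjusted p = 0.0909) and 0.18 (adjusted p = 0.126), which passed scaled to the 75th percentile, at 0.67 and 0.65, and chr5:35975265-35982561, with 0.08 (adjusted p = 0.489) and 0.04 (adjusted p = 0.831) on the forward and reverse strands.

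**Figure D4:**
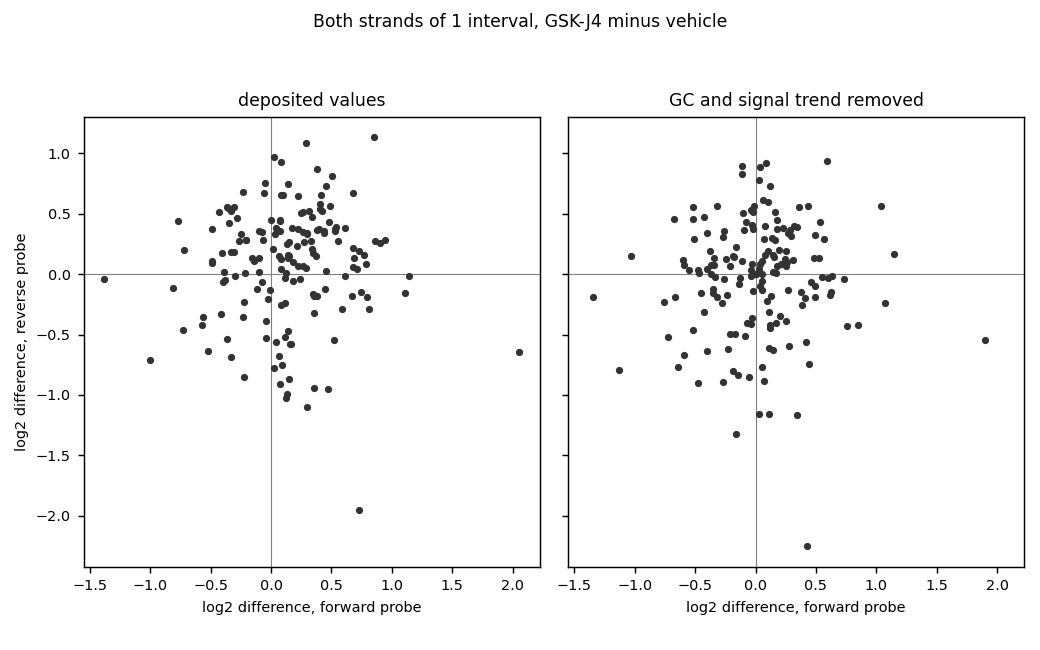
Log2 difference, GSK-J4 minus vehicle, of the forward probe (x axis) against the reverse probe (y axis) of the 162 intervals well above background on both strands, in deposited values (left) and with the trend removed (right). The points form a cloud with no slope, with a Pearson correlation of 0.04 in each panel.

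The name intergenic was checked against the gene probes of the array, which can show a region inside a gene only where probes of that gene lie on both sides. Of the 1611 probes, 58 for 55 regions lay between probes of 1 protein-coding gene on the same strand, so that by these coordinates they could be read from inside that gene. There 4 were higher and 13 lower by fold and p (6.90% and 22.4%), with a median difference of −0.13. Without the regions at Lsamp, which are counted here because a probe under a synonym of that gene lies ahead of them, 4 were higher and 7 lower among 51 (7.84% and 13.7%). Between gene probes of the other strand lay 40, with 3 higher and 5 lower. The 1493 in neither place had 154 higher and 120 lower (10.3% and 8.04%). They are not shown to be intergenic, since a gene with probes on 1 side only could not be seen. There were 9276 gene spans to check against, for 20297 protein-coding symbols on the array. The groups of regions were chosen after values were known, and the difference between them was not tested.

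The share of lower probes was read by the length of the region. By fold and p, of 254 probes for regions of up to 1000 bases 7.09% were higher and 13.0% lower, and of 456 for regions up to 10000 bases 8.33% and 10.5%. Of 513 for regions up to 30000 bases 12.1% were higher and 5.85% lower, and of 388 for longer ones 12.1% and 6.96%. The 2 shorter classes had the larger lower shares. With the trend removed, the lower shares were 13.8%, 11.2%, 8.97% and 7.99% in this order, and the higher ones 4.72%, 6.36%, 6.24% and 6.96%. The median GC content of the probes was 45% in each, and the difference between lengths was not tested.

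The brightest regions did not pass the test in deposited values, and for some this turned on the scaling. The region chr14:78924115-78938125_F, with 83.3% GC in its probe, read 16.60, 16.47 and 16.55 in vehicle and 16.63, 16.71 and 16.47 in GSK-J4 (0.06 ± 0.09 SE, limma adjusted p = 0.637), and chr17:17481706-17482457_R differed by 0.04 ± 0.10 (adjusted p = 0.784). In both the groups overlapped. Scaled to the 75th percentile, the first differed by 0.58 (adjusted p = 0.0134) and the second by 0.53 (adjusted p = 0.0181), and both passed. The region chr14:77006215-77063293_R read 16.17, 16.24 and 16.05 in vehicle and 15.69, 15.95 and 15.20 in GSK-J4 and did not pass (−0.54 ± 0.20 SE, adjusted p = 0.111). At this brightness a probe of 45% GC and one of 83.3% cannot be set against each other in level.

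Regions with several probes showed how far probes of 1 interval stand apart. The 4 probes of chr12:45415565-45423519_F differed by 0.26, −0.08, −0.23 and 0.04 between the groups, with standard errors of 0.11 to 0.16, and none passed. The 3 probes of chr6:11996975-12037300_F differed by −0.17, −0.31 and −0.17 and did not pass either (limma adjusted p between 0.0892 and 0.220). Those of chr6:116123643-116124550_F, all over 13 on the log2 scale, lay between −0.09 and 0.00.

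A few regions stood on 1 array alone. The region chr17:26911397-26917047_R read 8.97 on vehicle array 1, against 5.11 to 6.47 on the other 5 arrays, while its forward strand read 11.50 to 11.74 on all 6. Vehicle array 1 had 2 such region probes at least 1 on the log2 scale above every other array, GSK-J4 arrays 2 and 3 had 1 each, and the others 0. In the other direction chr13:70745306-70837331_R read 5.05 on GSK-J4 array 1 against 8.96 and 9.50 on the other GSK-J4 arrays and 9.54 to 9.99 in vehicle. Region probes at least 1 below every other array numbered 11 on vehicle array 1, 17 on GSK-J4 array 3 and 0 to 4 on the rest. The mean difference of −1.96 of chr13:70745306-70837331_R rested on that array (limma adjusted p = 0.276).

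Some regions lie in imprinted loci with known long noncoding RNAs, and were picked for that. On the forward strand between Meg3 and Mirg, 6 of 7 probes had negative differences, with a median of −0.43 and a range from −1.09 to 0.26. The largest, chr12:110909258-110913909_F, read 10.08, 9.87 and 10.09 in vehicle and 8.64, 8.999 and 9.13 in GSK-J4 (limma adjusted p = 0.0169), with the groups apart. Meg3, a maternally expressed long noncoding RNA, had 5 probes at −0.50 to −0.98. Rian, another noncoding RNA of that stretch, had a probe at −1.04 (adjusted p = 0.0339) and one at 0.97 (adjusted p = 0.0439), so its probes disagreed. Between Ube3a and Snrpn the strands differed in their values, with 4 reverse-strand probes from −0.83 to 0.01 and 7 forward-strand probes from −0.65 to 0.59. There chr7:66874527-67012170_R read 10.74, 10.60 and 11.04 against 9.98, 10.13 and 9.79 (adjusted p = 0.0254), and chr7:66926500-66952100_F within it, on the other strand, read 8.61, 8.80 and 8.74 against 9.36, 9.18 and 9.39 (adjusted p = 0.0213). No array overlapped in either.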

How the data were processed

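Hypothalamic RNA of 6 samples, 3 per group, was measured on 1-colour Agilent arrays. The authors extracted each spot's intensity and its detection flag (Agilent Feature Extraction 10.7.1.1 in the submitters' processing notes) and deposited them. The authors also deposited log2 values, which their methods describe as quantile normalized in GeneSpring. Each deposited column correlated with its array's log2 intensity at 0.999 or more. The coordinates, on mm9, were taken from the files, and no genome sequence was used. Of 37074 gene names, 24787 matched the RefSeq table, which is on GRCm38 and served for names alone.

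The deposited log2 values of the 34443 probes kept in any group were compared with lmFit and eBayes (limma 3.58.1, R 4.3.3), two-sided, with no covariate. P-values were adjusted by Benjamini-Hochberg over these probes, and shares of all probes are over the 30940 well above background on all 6 arrays. The trend was a smooth of GC content and mean signal (mgcv 1.9.3), fitted in each array on probes other than region probes. The test was tested on simulated data. The members, gene lists and tests were chosen with earlier results of these data known. Named by rule were the 6 largest rises and 6 largest falls past fold and p in both values with groups apart, the brightest probes marked in 1 group only, the 4 brightest, the 3 with most probes, those at the edge of detection, the brightest intervals kept on both strands, and the nearest probes with a RefSeq gene name within 100000 bases. Runs, loci, pairs of strands that passed and regions on 1 array alone were picked after their values were seen. Alternatives were other scalings (75th percentile, normexp with an offset of 50), other filters, variance models, array weights, the methods' t-test, trends on 1 variable, the replicate number as a block, and leaving out each array. The probes past both values under each of these, and the pairs and places without the regions at Lsamp, were alternatives chosen after seeing the data. The number of arrays limits the precision.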

Additional observations from a re-analysis of the deposited data

How the results depend on the processing

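The counts by adjusted p were the least stable. From 382 region probes in deposited values and 263 with the trend removed, they ranged from 0 to 276 and from 0 to 184 when 1 array was left out, with 0 or 1 without each vehicle array. With no filter on background they were 231 and 109, with the methods' t-test after Benjamini-Hochberg 9 and 0 for unequal variances (501 and 437 at an unadjusted p of 0.05) and 191 and 88 for equal variances. The shares called of all probes moved too, from 17% and 10.5%. They were 9.87% and 3.93% with no filter, 0.281% and 0% for unequal variances, and 10.1% and 4.31% for equal variances. Without a vehicle array they were at most 0.0194%. With the replicate number as a block 0 and 0 region probes were called (653 and 561 at an unadjusted p of 0.05), and 0 of all probes. Arrays with the same number deviated together little (correlations of 0.007, 0.026 and 0.081), so the numbers were not taken as pairs, and of the 12 regions of the largest rises and falls, all with an adjusted p of 0.05 in deposited values, 0 kept it under the block and 0 to 11 without an array. Fold and p held better, with 273 to 347 and 236 to 305 probes when an array was left out (from 303 and 263), and 118 and 96 with normexp. With normexp these were 7.32% and 5.96% of region probes, against 5% and 4.11% of all probes. The median difference in deposited values was 0.025 scaled to the 75th percentile, 0.052 with normexp, 0.026 over all kept region probes and 0.063 to 0.10 without an array, and with the trend removed 0.064 for a trend on signal alone and −0.013 to 0.018 without an array. The share of higher among probes past fold and p was 54.5%, and 41.2% scaled to the 75th percentile. For the adjusted p with the trend removed it was 44.5%, and 56.1% for a trend on signal alone. Of 506 values of named regions under alternatives, 355 held, 128 no longer passed, 9 newly passed (5 regions scaled to the 75th percentile, and 3 values of chr16:90116006-90119297_R) and 14 changed sign, none of which had been called. The 506 include regions marked in 1 group only, such as chr16:90116006-90119297_R, which had to differ. With normexp, chr17:17481706-17482457_R came to −0.094, a probe of chr12:45415565-45423519_F to 0.0019 and chr5:35975265-35982561_R to −0.089. Scaled to the 75th percentile, the 3 probes of chr6:116123643-116124550_F came to 0.29, 0.22 and 0.29 and another of chr12:45415565-45423519_F to −0.094. Leaving out 1 array at a time gave −0.039 to 0.10 for chr17:17481706-17482457_R, −0.13 to 0.029 and −0.098 to 0.12 for these probes of chr12:45415565-45423519_F, −0.028 to 0.019 for a probe of chr6:116123643-116124550_F and −0.071 to 0.11 for chr5:35975265-35982561_R. The causes were not tested. Dim probes limit the precision, since region probes were dimmer than the rest.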

Other observations

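The letters CCTAACC were counted over the whole array after the probes with the largest rises had been seen to hold CCTAAC. Of the 30940 probes well above background on all 6 arrays, 79 held them, of which 19 were higher and 4 lower with GSK-J4 by limma's adjusted p (24.1% and 5.06%, beside 9.10% and 7.86% of all probes). With the trend removed 15 were higher and 6 lower (19.0% and 7.59%, beside 5.12% and 5.34%), and the median difference was 0.20 in both values. Among region probes 10 held them, and 2 of those were higher and 1 lower. The letters were picked because the largest rises hold CCTAAC, and those that hold CCTAACC are counted among the 79. Such probes may share transcripts or repeats, and their sharing was not tested. The shorter letters CCTAAC, those first seen, had smaller shares. Of 276 such probes, 39 were higher and 20 lower by limma's adjusted p (14.1% and 7.25%), and 27 and 15 with the trend removed (9.78% and 5.43%). Their median difference was 0.06, and 0.07 with the trend removed. The probes of the rising X chromosome regions hold CCTAAC but not CCTAACC.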
